A study of Mus musculus with 3 samples.

Results

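The genes described here are the subunits of potassium and voltage-gated calcium channels, taken as every gene whose symbol starts with Kcn, Cacna, Cacnb or Cacng. This also takes in 3 non-coding genes with the prefix, which are counted below as channel genes. The rule finds 97 of the 19050 gene symbols in the tables. They were measured by droplet single-cell RNA-seq (10x Genomics 3' v2 chemistry) in mammary epithelial cells of female FVB/NJ mice at 10 weeks of age. The number 4 glands of 4 mice were pooled, dissociated, stained for CD49f, EpCAM, CD31, CD45, Ter119 and a dead-cell dye, and sorted for live epithelial cells. The labels place 3 libraries in 1 group and give no genotype, treatment or control. They do not say whether the libraries share a pool of mice, so a p-value here covers no more than the scatter of these libraries, and that scatter may be technical.

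Each cell was placed in a class from the UMI counts of 11 marker genes, a UMI being a unique molecular identifier that tags 1 captured transcript. Basal-like cells were those led by the sum of Krt5, Krt14 and Acta2, hormone-responsive-like cells by that of Prlr, Areg, Pgr and Esr1, and luminal progenitor-like cells by that of Csn3, Elf5, Kit and Aldh1a3. The leading sum had to reach 5 UMIs and 3 times each of the others. None of the 11 markers is a channel gene. Of 24320 kept cells, 20218 were classed, 3662 had a leading sum under 5 UMIs and 440 reached 5 UMIs but not the ratio. A further 758 classed cells lay exactly at 5 UMIs. Basal-like cells numbered 1493, 4333 and 3926 in libraries 1, 2 and 3, hormone-responsive-like cells 343, 977 and 1208, and luminal progenitor-like cells 3085, 1639 and 3214. The summed markers stood at 8818 to 11310 CPM (counts scaled to a common total) in basal-like cells for the basal list, at 4681 to 5321 CPM in hormone-responsive-like cells for the hormone-responsive list and at 5004 to 6929 CPM in luminal progenitor-like cells for the luminal progenitor list, so that the defining markers were present in each class. Outside its own class no list passed 330 CPM in any sum.

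The libraries held between 6691 and 11120 barcodes and between 18584156 and 30984706 UMIs, with median depths of 2333 to 2525 UMIs per barcode. Summing the counts of each class in each library gave 9 sums, of 1244862 to 11795218 UMIs. The smallest was the hormone-responsive-like sum of library 1, in which 3 counts, the floor used here, stand for 2.20 CPM. Pairs of libraries had 77, 129 and 146 cell barcodes in common and 1 barcode was in all 3 libraries. Within every class the libraries differed by more than sampling noise (chi-square per degree of freedom 5.31 to 90.7). Markers of other cell types were present at low levels: the fibroblast list summed to 101 to 319 CPM in basal-like, 152 to 193 CPM in hormone-responsive-like and 17.7 to 36.4 CPM in luminal progenitor-like cells, in the first 2 of these classes mostly from Dcn. The pericyte list summed to 35.4 to 39.0 CPM in basal-like, 72.3 to 107 CPM in hormone-responsive-like and 79.7 to 91.4 CPM in luminal progenitor-like cells. The luminal values came mostly from Notch3. The defining gene Cspg4 was at 0 in 4 of the 9 sums, all of them luminal, and at 0.908, 4.08 and 3.79 CPM in basal-like cells. Rgs5, Pdgfrb and Des were also higher in basal-like cells than in both luminal classes of each library.

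Voltage-gated calcium channels open when a membrane depolarises and let calcium in; a pore subunit sets the current type, while beta, alpha-2-delta and gamma subunits control trafficking and gating. Potassium channels let potassium out and hold or restore the negative membrane potential. They fall into voltage-gated, inward-rectifying, two-pore-domain and calcium-activated families, many of which work with auxiliary subunits. In the mammary gland, myoepithelial cells contract in response to oxytocin through a rise in intracellular calcium, and secretory luminal cells move ions and fluid through apical and basolateral channels.

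The upstream sequences of 5 of these genes are shown because large differences between the classes rest on them: Kcnmb1 and Cacna2d1 towards basal-like cells, Kcnh1 towards hormone-responsive-like cells, and Kcnn4 and Kcnk5 towards luminal progenitor-like cells. Each is the 250 bases before the transcription start in RefSeq, build GRCm38.p6, 5′ to 3′ on the gene's own strand. The windows are chr11:33962763-33963012 (plus strand) for Kcnmb1, chr5:15934441-15934690 (plus) for Cacna2d1, chr1:192190527-192190776 (plus) for Kcnh1, chr7:24370013-24370262 (plus) for Kcnn4 and chr14:20181783-20182032 (minus) for Kcnk5. Capitals mark matches to the motifs named after the sequences.
Kcnmb1: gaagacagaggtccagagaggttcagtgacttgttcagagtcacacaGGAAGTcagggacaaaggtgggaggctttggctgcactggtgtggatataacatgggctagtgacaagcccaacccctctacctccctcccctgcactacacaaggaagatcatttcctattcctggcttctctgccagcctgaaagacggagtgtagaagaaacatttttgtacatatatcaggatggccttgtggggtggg
Cacna2d1: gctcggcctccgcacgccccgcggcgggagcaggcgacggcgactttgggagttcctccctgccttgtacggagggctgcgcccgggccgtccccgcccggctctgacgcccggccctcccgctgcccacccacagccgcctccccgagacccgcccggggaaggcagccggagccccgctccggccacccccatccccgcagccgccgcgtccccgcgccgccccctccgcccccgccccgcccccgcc
Kcnh1: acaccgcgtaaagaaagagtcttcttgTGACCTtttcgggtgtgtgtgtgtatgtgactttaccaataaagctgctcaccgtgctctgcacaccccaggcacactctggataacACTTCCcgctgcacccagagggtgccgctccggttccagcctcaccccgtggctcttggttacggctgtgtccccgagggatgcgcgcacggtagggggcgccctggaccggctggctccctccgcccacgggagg
Kcnn4: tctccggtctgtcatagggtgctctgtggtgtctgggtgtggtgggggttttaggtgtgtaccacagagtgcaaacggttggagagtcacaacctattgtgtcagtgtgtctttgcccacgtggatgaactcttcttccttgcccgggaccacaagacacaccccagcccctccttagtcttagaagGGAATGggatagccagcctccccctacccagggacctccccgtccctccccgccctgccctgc
Kcnk5: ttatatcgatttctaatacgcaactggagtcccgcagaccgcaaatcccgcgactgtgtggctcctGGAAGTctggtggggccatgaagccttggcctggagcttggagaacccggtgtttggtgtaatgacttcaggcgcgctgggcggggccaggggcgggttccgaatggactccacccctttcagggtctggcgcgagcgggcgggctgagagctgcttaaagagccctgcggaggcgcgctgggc

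The Cacna2d1 window had a GC content of 82.4%, against 50.8% for Kcnmb1, 62% for Kcnh1, 58.8% for Kcnn4 and 62.8% for Kcnk5. Windows were searched on both strands for 6 motifs, of which the CArG box is given by name only. The MCAT motif was spelled CATTCC. The motif of AP-1 was spelled TGANTCA, with any base at N. The GAS motif, bound by STAT factors, was spelled TTCNNNGAA. The ETS motif was spelled GGAAGT, which shares its first letters with the other strand of MCAT. The nuclear receptor half-site was spelled AGGTCA. Kcnmb1, Kcnh1 and Kcnk5 each had 1 ETS match, Kcnh1 also a nuclear receptor half-site, Kcnn4 an MCAT match and Cacna2d1 none. Of the 97 genes, 71 had such a window. The CArG box was in 0 of 23 windows of 12 genes higher in basal-like cells than in both other classes. It was in 0 of 6 windows of 4 genes higher in hormone-responsive-like cells than in both others. For luminal progenitor-like cells it was in 0 of 4 windows of 4 genes higher there than in both others. Among all genes it was in 1.47% of 32851 windows. MCAT was in 3, 1 and 2 of these windows against 12.6% of all windows, ETS in 1, 1 and 1 against 19.7%, AP-1 in 2, 0 and 0 against 6.75%, GAS in 2, 0 and 0 against 7.02%, and the half-site in 0, 1 and 0 against 14.0%. A match is a description of letters and not a binding site.

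Of the 97 channel genes, 34 had enough counts to be tested and 63 did not. A gene entered the test when it reached 1.54 CPM in 3 of the 9 sums, so a gene could enter through the class in which it was high. Genes were compared with edgeR's quasi-likelihood test over all 12641 genes that passed, with Benjamini-Hochberg adjustment, and a gene was called where the adjusted p was below 0.05 and the log2 fold change 1 or more in size. In basal-like set against luminal progenitor-like cells 21 channel genes were called, 16 higher and 5 lower in basal-like cells, where 31.3% of all tested genes were called. The 16 include the non-coding RNA Kcnq1ot1. In basal-like set against hormone-responsive-like cells 20 were called, 15 higher and 5 lower in basal-like cells, against a background of 35.9%. In hormone-responsive-like set against luminal progenitor-like cells 17 were called, 9 higher and 8 lower in hormone-responsive-like cells, against 24.6%; without library 3 the count was 11, and with sums thinned to a common total 9.

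The median log2 fold change of the 34 tested channel genes was 1.13 for basal-like over luminal progenitor-like cells, where that of all tested genes was -0.08. For basal-like over hormone-responsive-like cells the medians were 1.01 and 0.00, and for hormone-responsive-like over luminal progenitor-like cells -0.14 and -0.06. By direction, 17.3% and 14.0% of all tested genes were higher and lower in basal-like than in luminal progenitor-like cells, 20.7% and 15.2% than in hormone-responsive-like cells, and 10.5% and 14.1% in hormone-responsive-like than in luminal progenitor-like cells. Over both of its comparisons, 13 channel genes were called higher in basal-like cells, 5 in hormone-responsive-like cells and 5 in luminal progenitor-like cells, out of 34 tested. Of all tested genes 12.5% were called so in basal-like cells, 6.12% in hormone-responsive-like cells and 5.36% in luminal progenitor-like cells. Another 5 were called in some other way, and 6 were tested and called in none of the 3 comparisons. Because a scarce gene could enter the test only through the class in which it was high, these medians and counts do not measure enrichment of channel genes in a class.

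**Figure D1:**
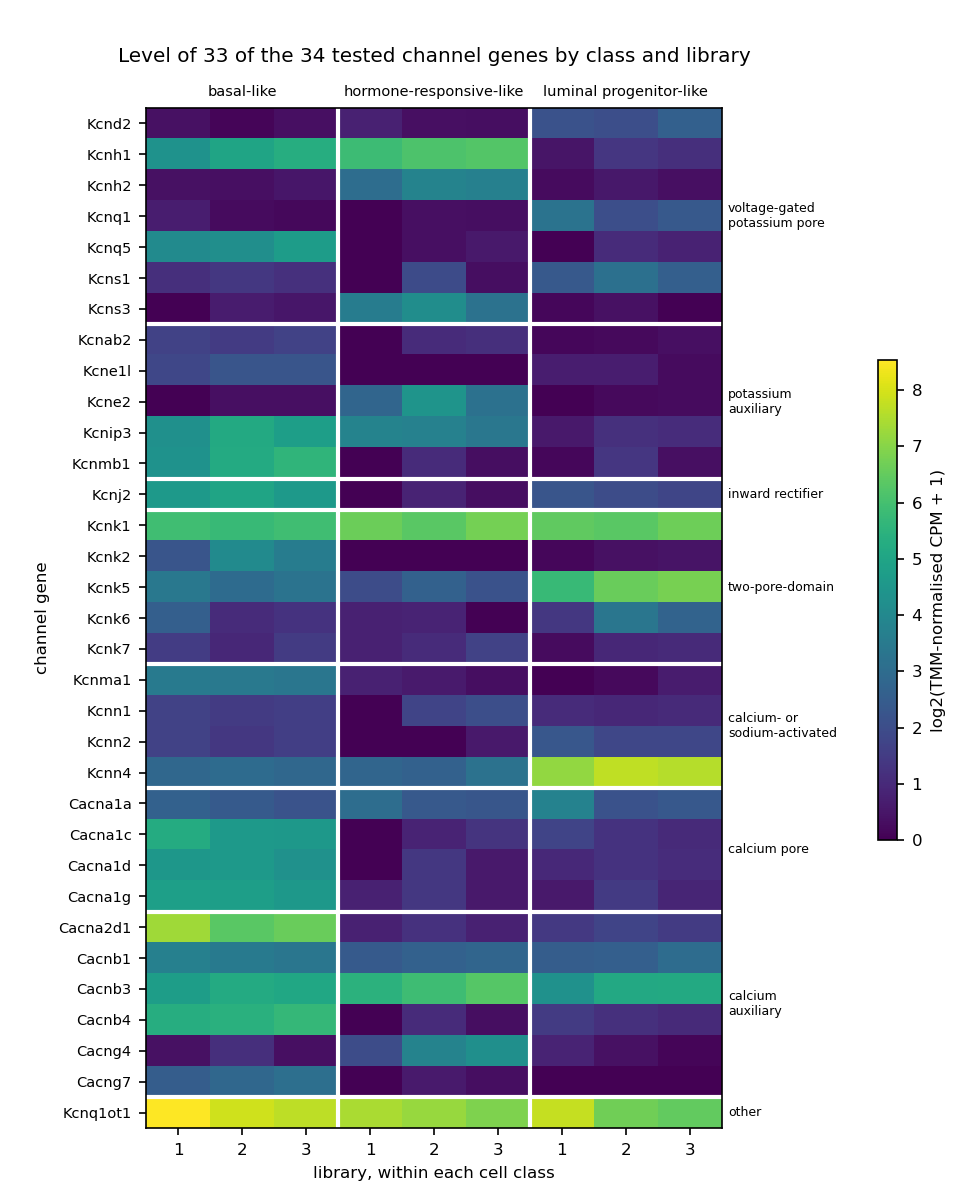
Levels of 33 of the 34 tested channel genes as log2(TMM-normalised CPM + 1), a gene per line grouped by role, with the 3 libraries as columns within basal-like, hormone-responsive-like and luminal progenitor-like cells. The 13 genes called over both other classes in basal-like cells are brighter in the left columns than elsewhere on their own line. The scarcer of them stay dark on the shared colour scale. Kcnn4 and Kcnk5 stand bright in the right columns.

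Among calcium channel pores, both detected L-type genes and 1 T-type gene were higher in basal-like cells than in either luminal class, and these 3 were called under all 13 alternatives in both comparisons. Cacna1c, the L-type pore of smooth and cardiac muscle (chromosome 6, 118587240 to 119196418, minus strand, GRCm38), stood at 36.7, 23.7 and 22.3 CPM in basal-like cells of libraries 1, 2 and 3. Hormone-responsive-like cells had 0, 0.79 and 1.46 CPM and luminal progenitor-like cells 2.38, 1.40 and 1.03 CPM. The lowest basal-like library was far above the highest luminal one, and the log2 fold change was 4.11 ± 0.16 over luminal progenitor-like cells (SD of the within-library ratios, n = 3, adjusted p = 6.2e-06) and 4.68 ± 1.67 over hormone-responsive-like cells (adjusted p = 1.5e-05), or 5.53 over the hormone-responsive-like class without library 3. The SD is that of ratios with a prior count of 2, which for scarce genes can lie nearer 0 than the fitted value. Cacna1d, the L-type pore that opens at more negative potentials (chromosome 14, 30039939 to 30491455, minus strand), averaged 21.3 ± 2.07 CPM in basal-like, 0.689 ± 0.81 CPM in hormone-responsive-like cells and 1.17 ± 0.21 CPM in luminal progenitor-like cells. Its log2 fold changes were 4.16 ± 0.20 over luminal progenitor-like and 4.63 ± 1.28 over hormone-responsive-like cells, or 5.74 over the hormone-responsive-like class without library 2. An exon of Cacna1d overlaps the gene Chdh on the opposite strand in the annotation.

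Cacna1g, a T-type pore that opens near the resting potential (chromosome 11, 94408391 to 94474198, minus strand), had 27.1, 26.3 and 22.3 CPM in basal-like cells of the 3 libraries. Hormone-responsive-like cells had 0.734, 1.58 and 0.486 CPM and luminal progenitor-like cells 0.496, 1.71 and 0.844 CPM. The basal-like values were close to each other and did not overlap with either luminal class, with log2 fold changes of 4.70 ± 0.69 over luminal progenitor-like (adjusted p = 4.0e-06) and 4.71 ± 0.55 over hormone-responsive-like cells (adjusted p = 1.5e-05), the second being 5.41 without library 2. Cacna1a, the P/Q-type pore of nerve terminals, was the exception among the 4 tested pores. It had 5.29, 4.38 and 3.51 CPM in basal-like, 7.34, 4.21 and 3.88 CPM in hormone-responsive-like and 12.7, 3.43 and 4.12 CPM in luminal progenitor-like cells, where library 1 stood apart from the others. The classes overlapped and no comparison was called (log2 fold changes -0.40, -0.14 and -0.26, adjusted p = 0.3, 0.76 and 0.58, for basal-like over luminal progenitor-like, basal-like over hormone-responsive-like and hormone-responsive-like over luminal progenitor-like cells). Without library 1 these values were 0.11, 0.03 and 0.08. The other 5 pore genes had 31 UMIs (Cacna1e), 12 UMIs (Cacna1h) or 2 UMIs each (Cacna1b, Cacna1f and Cacna1s) over all 9 sums and were not tested.

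The calcium channel auxiliary genes did not share 1 pattern. Cacna2d1, the alpha-2-delta subunit that raises the number of channels at the membrane and binds gabapentin (chromosome 5, 15934691 to 16374511, plus strand), had 159, 81.1 and 95.1 CPM in basal-like cells. Hormone-responsive-like cells had 0.734, 1.32 and 0.728 CPM and luminal progenitor-like cells 1.68, 2.34 and 1.78 CPM. Library 1 had the highest basal-like value, every library kept the same order between basal-like and both luminal classes, and the log2 fold changes were 5.84 ± 0.69 over luminal progenitor-like (adjusted p = 5.3e-07) and 6.68 ± 0.80 over hormone-responsive-like cells (adjusted p = 9.0e-07). Its 250 upstream bases are those printed above without a motif match. Other alpha-2-delta genes were scarce, with 47 UMIs of Cacna2d2, 9 of Cacna2d3 and 2 of Cacna2d4 in all; 8 of the 9 Cacna2d3 UMIs lay in hormone-responsive-like cells.

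Of the intracellular beta subunits, which carry the pore to the membrane, Cacnb4 was called towards basal-like cells. Cacnb1 was higher in basal-like cells without overlap but under the threshold of fold, and Cacnb3 was highest in hormone-responsive-like cells. Cacnb4 (chromosome 2, 52428320 to 52676831, minus strand) had 38.9, 42.0 and 50.1 CPM in basal-like cells, 0, 1.05 and 0.243 CPM in hormone-responsive-like cells and 1.78, 1.25 and 1.03 CPM in luminal progenitor-like cells. The classes were apart in every library, with log2 fold changes of 4.99 ± 0.50 over luminal progenitor-like (adjusted p = 1.8e-06) and 6.31 ± 1.05 over hormone-responsive-like cells (adjusted p = 3.6e-06). The second was 7.80 without library 2 and 5.71 without library 3. Cacnb3 (chromosome 15, 98630840 to 98644529, plus strand) had 25.8, 36.0 and 33.2 CPM in basal-like, 44.1, 58.2 and 76.5 CPM in hormone-responsive-like and 18.7, 34.5 and 35.7 CPM in luminal progenitor-like cells. Hormone-responsive-like cells were the highest class in each library, and the other classes overlapped. Cacnb3 was called for hormone-responsive-like over luminal progenitor-like cells (1.03 ± 0.24, adjusted p = 8.3e-04), though its fold change was 0.95 without library 1 and 0.98 without library 3, under the threshold of 1 (adjusted p between 8.2e-07 and 0.02 over 13 alternatives). Basal-like over hormone-responsive-like cells gave -0.90 ± 0.28 (adjusted p = 0.0012), which missed the threshold of fold except without library 2, where it was called (adjusted p = 0.011).

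Cacnb1 averaged 10.6 ± 1.51 CPM in basal-like, 5.17 ± 0.716 CPM in hormone-responsive-like cells and 5.62 ± 1.3 CPM in luminal progenitor-like cells. Its fold changes, 0.90 over luminal progenitor-like and 0.99 over hormone-responsive-like cells (adjusted p = 0.0097 and 0.012), lay just under the threshold, which the second passed under 8 of 13 alternatives. Cacnb2 had 13 UMIs in all, 11 of them in basal-like cells. With the L-type pores, the genes of the L-type complex were thus called towards basal-like cells for Cacna1c, Cacna1d, Cacnb4 and Cacna2d1, while Cacna1f and Cacna1s had 2 UMIs each.

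The detected gamma-family genes lay in opposite classes. Both code for proteins best known for carrying AMPA-type glutamate receptors. Cacng4 (chromosome 11, 107732357 to 107794557, minus strand) had 0.311, 1.24 and 0.281 CPM in basal-like, 2.94, 13.2 and 17.97 CPM in hormone-responsive-like and 0.793, 0.312 and 0.0937 CPM in luminal progenitor-like cells. Hormone-responsive-like cells were highest in each library, but library 1 was far lower than libraries 2 and 3, and the log2 fold changes were -4.10 ± 1.32 for basal-like over hormone-responsive-like (adjusted p = 0.0012) and 4.69 ± 2.03 for hormone-responsive-like over luminal progenitor-like cells (adjusted p = 0.0013). The first was -5.20 without library 2 and -3.25 without library 3, the second 6.34 without library 1 and 3.52 without library 3. Cacng7 (chromosome 7, 3332955 to 3368221, plus strand) had 134 UMIs in basal-like cells, 3 in hormone-responsive-like cells and 0 in luminal progenitor-like cells. In basal-like cells these were 4.67, 6.20 and 7.59 CPM. Taken against the floor of 3 counts over the class, Cacng7 was at least 58.3-fold higher in basal-like than in luminal progenitor-like cells (adjusted p = 8.9e-05), and its ratio of basal-like to hormone-responsive-like counts was 19.9 (95% exact interval 6.67 to 97.7, counting error only). No fold is given between the luminal classes, where 3 and 0 UMIs lie at or under the floor; the model called that pair (adjusted p = 0.048) but not without library 2 (adjusted p = 0.266) or library 3 (adjusted p = 0.171) or with a stricter class rule (adjusted p = 0.052), with adjusted p from 0.03 to 0.266 over 12 alternatives. Cacng2 had 3 UMIs in all.

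**Figure D2:**
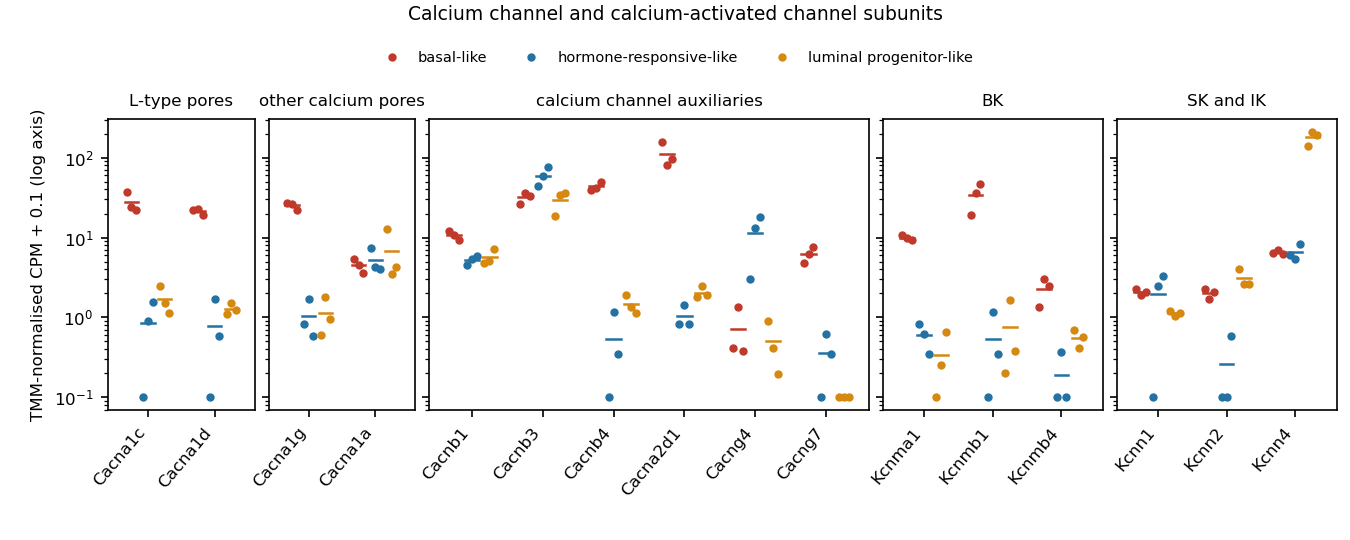
TMM-normalised CPM plus 0.1 on a log axis for calcium channel genes, BK channel genes and calcium-activated channels of small and intermediate conductance (SK and IK), in basal-like, hormone-responsive-like and luminal progenitor-like cells; points are the 3 libraries and bars their means. Cacna1c, Cacna1d, Cacna1g, Cacnb4, Cacna2d1, Kcnma1 and Kcnmb1 stand above both luminal classes in every library, and Kcnn4 stands above the other classes in luminal progenitor-like cells (142 to 210 CPM).

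The calcium-activated potassium channels divided between the classes. The BK channel, which opens to calcium and depolarisation together and limits smooth-muscle contraction, was the one of basal-like cells. Its pore gene Kcnma1 (chromosome 14, 23289431 to 24014491, minus strand) had 10.6, 9.82 and 9.27 CPM in basal-like cells, 0.734, 0.527 and 0.243 CPM in hormone-responsive-like cells and 0, 0.156 and 0.562 CPM in luminal progenitor-like cells. The basal-like libraries were within a narrow range well above every luminal value, with log2 fold changes of 5.17 ± 0.84 over luminal progenitor-like (adjusted p = 6.9e-05) and 4.46 ± 0.37 over hormone-responsive-like cells (adjusted p = 4.3e-04). The luminal progenitor-like class had 7 UMIs, and the value over it was 6.95 without library 3 and 4.56 without library 1.

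Kcnmb1, the smooth-muscle beta subunit that raises the calcium sensitivity of BK (chromosome 11, 33963013 to 33973641, plus strand), had 19.3, 36.5 and 46.9 CPM in basal-like cells. Hormone-responsive-like cells had 0, 1.05 and 0.243 CPM and luminal progenitor-like cells 0.0991, 1.56 and 0.281 CPM. Library 1 had the lowest basal-like value and the luminal values were highest in library 2, but the classes did not overlap; log2 fold changes were 5.95 ± 1.02 over luminal progenitor-like (adjusted p = 8.6e-06) and 6.14 ± 0.86 over hormone-responsive-like cells (adjusted p = 2.8e-05). Without library 2 these values were 7.30 and 7.64, and without library 3 they were 5.31 and 5.51. Kcnmb4, the neuronal beta subunit, had 1.25, 2.95 and 2.39 CPM in basal-like cells, 0, 0.263 and 0 CPM in hormone-responsive-like cells and 0.595, 0.312 and 0.469 CPM in luminal progenitor-like cells and was not tested; it overlaps Kcnmb4os2 on the opposite strand. Kcnmb2 had 4 UMIs, all in hormone-responsive-like cells. Kcnmb1 lies within the span of Kcnip1, which is on the opposite strand and had 1 UMI in all.

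Because Cacna1c, Kcnma1 and Kcnmb1 are also genes of vascular smooth muscle, the basal-like class was searched for pericyte markers. In it, 40 cells (5, 18 and 17 by library) had UMIs of at least 2 pericyte markers, 0.41% of basal-like cells with 0.392% of their UMIs. They held 8 of 526 Cacna1c UMIs (1.52%), 12 of 2038 Cacna2d1 UMIs (0.589%), 4 of 779 Kcnmb1 UMIs (0.513%) and 1 of 203 Kcnma1 UMIs (0.493%). Each of these shares was above the 0.392% of UMIs, that of Cacna1c most. Other genes were more concentrated there. The same cells held 20 of 23 basal-like UMIs of Kcne4 (87.0%), 10 of 14 of Kcnk3 (71.4%), 3 of 4 of Kcnj8 (75%) and 3 of 8 of Kcna5 (37.5%). With all cells carrying at least 2 markers of another cell type left out, the counts of called channel genes were 21, 20 and 17, the same as with them. At these depths a pericyte can lack UMIs of 2 markers, so such cells may remain in the class. How much they add to these genes was not tested.

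Kcnn4, the intermediate-conductance calcium-activated channel that carries potassium efflux in secretory epithelia and red blood cells (chromosome 7, 24370263 to 24386690, plus strand), was high in luminal progenitor-like cells. It had 6.23, 6.86 and 6.18 CPM in basal-like, 5.87, 5.27 and 8.25 CPM in hormone-responsive-like and 142, 210 and 191 CPM in luminal progenitor-like cells. The last class stood far above the others in all 3 libraries, and the other classes overlapped. Its log2 fold change was -4.82 ± 0.25 for basal-like over luminal progenitor-like (adjusted p = 2.8e-07) and -4.81 ± 0.42 for hormone-responsive-like over luminal progenitor-like cells (adjusted p = 4.7e-07), both called under all 13 alternatives. Basal-like over hormone-responsive-like cells gave -0.02 ± 0.39 (adjusted p = 0.96). For scale, the naming marker Elf5 stood at 12.5 to 15.4 CPM in basal-like, 8.73 to 17.96 CPM in hormone-responsive-like and 536 to 577 CPM in luminal progenitor-like cells, so low counts of a luminal progenitor gene were present in the other classes; the source of the low Kcnn4 counts was not tested.

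The small-conductance genes had few counts. Kcnn2 had 2.18, 1.62 and 1.97 CPM in basal-like cells, 0, 0 and 0.486 CPM in hormone-responsive-like cells and 3.96, 2.49 and 2.53 CPM in luminal progenitor-like cells. It was nearly missing from hormone-responsive-like cells, with 2 UMIs, against 38 in basal-like and 83 in luminal progenitor-like cells. The ratio of counts was 8.47 for basal-like over hormone-responsive-like cells (interval 2.19 to 72.4) and 14.2 for luminal progenitor-like over hormone-responsive-like cells (interval 3.80 to 119). Both pairs were called (adjusted p = 0.009 and 0.0036); the first missed the threshold without library 2 (2.41, adjusted p = 0.083, range over 11 alternatives 0.0054 to 0.083). Without library 3, where both hormone-responsive-like UMIs lay, the fitted log2 fold changes for basal-like over hormone-responsive-like and hormone-responsive-like over luminal progenitor-like cells were 6.39 and -7.12 in place of 3.00 and -3.59, values that then depend on the prior count. Kcnn1 had 2.18, 1.81 and 1.97 CPM in basal-like, 0, 2.37 and 3.16 CPM in hormone-responsive-like and 1.09, 0.935 and 1.03 CPM in luminal progenitor-like cells and was not called. Kcnn3 had 9 UMIs in all.

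Voltage-gated potassium pores were found in all 3 classes, but with different members. In basal-like cells the called pore gene over both luminal classes was Kcnq5, of the M-current family that damps excitability. It had 15.9, 17.7 and 25.6 CPM in basal-like cells, 0, 0.263 and 0.486 CPM in hormone-responsive-like cells and 0, 1.09 and 0.75 CPM in luminal progenitor-like cells. Basal-like cells were highest in every library, with a log2 fold change of 5.12 ± 1.00 over luminal progenitor-like cells (adjusted p = 2.6e-05, and 5.81 without library 2) and a ratio of counts of 62.2 over hormone-responsive-like cells (interval 21.1 to 303, adjusted p = 7.4e-05). Kcna6, a delayed rectifier, was untested but had 99 of its 103 UMIs in basal-like cells, at 0.623, 5.91 and 4.92 CPM, with library 1 well under the others.

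Kcnh1, the ether-à-go-go channel (chromosome 1, 192190774 to 192510159, plus strand), was the one voltage-gated pore gene above 10 CPM in 2 of the 3 classes. It had 19.6, 30.6 and 39.3 CPM in basal-like cells, 57.3, 69.8 and 75.7 CPM in hormone-responsive-like cells and 0.396, 1.56 and 1.22 CPM in luminal progenitor-like cells. The 3 classes stood in the same order in each library and did not overlap. Its log2 fold change was 4.86 ± 0.41 for basal-like over luminal progenitor-like cells (adjusted p = 1.2e-06), -1.20 ± 0.30 for basal-like over hormone-responsive-like cells (adjusted p = 5.3e-04) and 6.06 ± 0.56 for hormone-responsive-like over luminal progenitor-like cells (adjusted p = 5.5e-07), all called under each of 13 alternatives.

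Kcnh2 and Kcns3 were called in hormone-responsive-like cells over both other classes. Kcnh2, the ERG channel that repolarises heart muscle (chromosome 5, 24319589 to 24351604, minus strand), had 0.311, 0.286 and 0.421 CPM in basal-like, 7.34, 13.2 and 12.1 CPM in hormone-responsive-like and 0.198, 0.468 and 0.281 CPM in luminal progenitor-like cells. Every hormone-responsive-like library was far above the others, with log2 fold changes of -5.04 ± 0.44 for basal-like over hormone-responsive-like (adjusted p = 8.5e-06) and 5.08 ± 0.24 for hormone-responsive-like over luminal progenitor-like cells (adjusted p = 1.1e-05). Kcns3, a subunit that forms no channel alone and modifies other voltage-gated potassium channels, had 0, 0.572 and 0.421 CPM in basal-like, 11.01, 17.1 and 8.25 CPM in hormone-responsive-like and 0.0991, 0.312 and 0 CPM in luminal progenitor-like cells. The log2 fold change for basal-like over hormone-responsive-like cells was -4.90 ± 0.82 (adjusted p = 4.9e-05), and the ratio of counts for hormone-responsive-like over luminal progenitor-like cells was 111 (interval 37.1 to 548, adjusted p = 3.3e-05).

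Kcnq1, Kcnd2 and Kcns1 were called in luminal progenitor-like cells over both other classes. Kcnq1, the KCNQ1 pore of cardiac and epithelial tissue (chromosome 7, 143106362 to 143427042, plus strand), had 0.623, 0.191 and 0.14 CPM in basal-like, 0, 0.263 and 0.243 CPM in hormone-responsive-like and 8.52, 3.12 and 4.22 CPM in luminal progenitor-like cells. Library 1 had the highest luminal progenitor-like value, the groups did not overlap, and the log2 fold change for basal-like over luminal progenitor-like cells was -4.08 ± 0.30 (adjusted p = 8.9e-05). Against the 2 hormone-responsive-like UMIs, the ratio of luminal progenitor-like counts was 25.8 (interval 7.01 to 215, adjusted p = 4.8e-04).

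Kcnd2, a pore of the fast inactivating A-type current, had 0.311, 0.0953 and 0.281 CPM in basal-like, 0.734, 0.263 and 0.243 CPM in hormone-responsive-like and 3.47, 3.12 and 5.16 CPM in luminal progenitor-like cells. Its log2 fold change was -4.16 ± 0.32 for basal-like over luminal progenitor-like cells (adjusted p = 1.2e-04), and the ratio of luminal progenitor-like to hormone-responsive-like counts was 12.5 (interval 4.17 to 61.6, adjusted p = 0.001). Kcns1, a relative of Kcns3, had 1.25, 1.62 and 1.26 CPM in basal-like, 0, 2.90 and 0.243 CPM in hormone-responsive-like and 4.16, 7.95 and 4.97 CPM in luminal progenitor-like cells, with log2 fold changes of -2.11 ± 0.29 for basal-like (adjusted p = 0.0045) and -2.33 ± 1.29 for hormone-responsive-like over luminal progenitor-like cells (adjusted p = 0.0091). Luminal progenitor-like cells were highest in each library for both genes. Without library 3 the pair of luminal classes missed the threshold for Kcnd2 (adjusted p = 0.052, range over 12 alternatives 2.7e-04 to 0.052) and for Kcns1 (adjusted p = 0.097, range over 12 alternatives 0.0012 to 0.097); without library 2, which had most of its hormone-responsive-like level, the Kcns1 value was -4.57. In all, 8 of the 31 voltage-gated pore genes were tested.

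Auxiliary potassium subunits again differed by class. Kcne2, a single-span subunit that partners KCNQ1 in stomach and thyroid and can also bind ERG channels (chromosome 16, 92292389 to 92298129, plus strand), had 0, 0.286 and 0.281 CPM in basal-like, 5.87, 20.3 and 8.01 CPM in hormone-responsive-like and 0, 0.156 and 0.187 CPM in luminal progenitor-like cells. It was high in hormone-responsive-like cells of each library, with library 2 above the others. For basal-like over hormone-responsive-like cells its log2 fold change was -5.69 ± 0.65 (adjusted p = 2.3e-05), and the ratio of hormone-responsive-like to luminal progenitor-like counts was 115 (interval 38.5 to 567, adjusted p = 2.6e-05). Of the genes for possible KCNQ1 partners, Kcne2 thus lay in the class with 2 Kcnq1 UMIs and not in the class with 151. Kcne3 had 11 UMIs, Kcne1 had 5 and Kcne4 had 24, 23 of them in basal-like cells. Of those 23 Kcne4 UMIs, 20 lay in the basal-like cells with at least 2 pericyte markers.

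Kcne1l, the Kcne5 gene whose product inhibits KCNQ1 in expression systems, had 2.49, 3.81 and 3.79 CPM in basal-like cells, 0 UMIs in hormone-responsive-like cells and 0.595, 0.624 and 0.187 CPM in luminal progenitor-like cells. Its log2 fold change over luminal progenitor-like cells was 2.87 ± 0.71 (adjusted p = 0.0033), and it was at least 11.1-fold higher in basal-like than in hormone-responsive-like cells (adjusted p = 0.002). Basal-like cells were highest in each library. The neighbours Kcne2 and Kcne1, 47.9 kb apart on chromosome 16, had 126 and 5 UMIs.

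Kcnip3, a calcium-binding partner of A-type pores also known as the repressor DREAM (chromosome 2, 127456498 to 127522094, minus strand), had 18.4, 35.5 and 26.8 CPM in basal-like, 13.2, 12.4 and 9.47 CPM in hormone-responsive-like and 0.496, 1.25 and 1.12 CPM in luminal progenitor-like cells. The order was the same in each library, and the class with the lowest Kcnip3 was the one with the highest Kcnd2. Log2 fold changes were 4.79 ± 0.16 for basal-like over luminal progenitor-like (adjusted p = 2.0e-06), 1.27 ± 0.59 for basal-like over hormone-responsive-like (adjusted p = 0.0016) and 3.52 ± 0.69 for hormone-responsive-like over luminal progenitor-like cells (adjusted p = 4.3e-05). Without library 2 the middle one was 1.07 with an adjusted p of 0.051 (range over 13 alternatives 5.9e-06 to 0.051). Kcnab2, a cytoplasmic subunit of Kv1 channels, had 2.18, 1.81 and 2.25 CPM in basal-like, 0, 1.05 and 1.21 CPM in hormone-responsive-like and 0.0991, 0.156 and 0.281 CPM in luminal progenitor-like cells. It was called for basal-like over luminal progenitor-like cells (3.34 ± 0.26, adjusted p = 0.0014); the value for hormone-responsive-like over luminal progenitor-like cells (2.20, adjusted p = 0.047) did not keep 1 sign over the libraries and was called under 6 of 9 alternatives, not among them the one without library 2 (adjusted p = 0.283, range 0.042 to 0.283). The other 10 auxiliary genes were untested; of these Kcnmb4 had 66 UMIs and Kcnab3 had 45, 28 of the Kcnab3 UMIs in hormone-responsive-like cells.

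Inward rectifiers set the resting potential, and 1 of the 10 genes was tested. Kcnj2, the strong rectifier Kir2.1 (chromosome 11, 111066164 to 111076821, plus strand), had 23.0, 30.4 and 22.8 CPM in basal-like cells, 0, 0.79 and 0.243 CPM in hormone-responsive-like cells and 3.77, 2.96 and 2.44 CPM in luminal progenitor-like cells. The 3 classes kept this order in each library, with log2 fold changes of 3.04 ± 0.37 for basal-like over luminal progenitor-like (adjusted p = 9.3e-06), 5.83 ± 0.71 for basal-like over hormone-responsive-like (adjusted p = 4.4e-06) and -2.79 ± 1.08 for hormone-responsive-like over luminal progenitor-like cells (adjusted p = 0.0027). Without library 2 the last pair of values was 6.78 and -3.88. Kcnj16, 38.2 kb from Kcnj2, had 4 UMIs against 642. Among the untested genes Kcnj13 (Kir7.1) had 0.311, 6.77 and 5.48 CPM in basal-like cells and 1 and 4 UMIs in hormone-responsive-like and luminal progenitor-like cells, and 52 of 55 UMIs of Kcnj15 lay in luminal progenitor-like cells. For Kcnj13, as for Kcna6, library 1 was below the floor of 3 counts for that sum, 0.934 CPM; what set it apart was not tested.

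Two-pore-domain channels carry leak currents, and their genes spanned the range from 1 class to all 3. Kcnk2, the stretch-sensitive TREK-1 (chromosome 1, 189207930 to 189402273, minus strand), had 3.74, 15.9 and 10.96 CPM in basal-like cells, 0 UMIs in hormone-responsive-like cells and 0.0991, 0.312 and 0.375 CPM in luminal progenitor-like cells. All basal-like libraries were above all luminal ones, library 1 least so. The log2 fold change over luminal progenitor-like cells was 5.10 ± 0.70 (adjusted p = 4.3e-05), and Kcnk2 was at least 38.2-fold higher in basal-like than in hormone-responsive-like cells (adjusted p = 6.4e-05).

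Kcnk5, the TASK-2 channel opened by alkaline pH and known from kidney tubules (chromosome 14, 20140057 to 20181809, minus strand), had 9.65, 6.86 and 8.43 CPM in basal-like, 2.94, 5.27 and 3.40 CPM in hormone-responsive-like and 52.9, 94.3 and 109 CPM in luminal progenitor-like cells. Luminal progenitor-like cells were far above the others, with library 1 the lowest of that class. The log2 fold change was -3.39 ± 0.73 for basal-like (adjusted p = 8.8e-06) and -4.43 ± 0.47 for hormone-responsive-like over luminal progenitor-like cells (adjusted p = 9.4e-06). Basal-like over hormone-responsive-like cells was called at 1.04 ± 0.64 (adjusted p = 0.036), but not without library 1 (0.87, adjusted p = 0.013), without library 3 (0.88, adjusted p = 0.169) or after thinning the sums to 1 common total (0.96, adjusted p = 0.108); adjusted p ranged from 0.0052 to 0.169 over 13 alternatives. Its neighbour Kcnk16, 79.6 kb away, had 3 UMIs against 2499.

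Kcnk1, the weak rectifier TWIK-1 (chromosome 8, 125995170 to 126030685, plus strand), was above 50 CPM in all 3 classes. It had 58.9, 53.3 and 60.0 CPM in basal-like, 97.7, 81.1 and 107 CPM in hormone-responsive-like and 86.2, 80.8 and 100 CPM in luminal progenitor-like cells. Basal-like cells were lowest in each library without overlap, while the luminal classes overlapped. The log2 fold changes, -0.63 ± 0.10 over luminal progenitor-like (adjusted p = 0.0011) and -0.72 ± 0.11 over hormone-responsive-like cells (adjusted p = 5.0e-04), were under the threshold of 1, and hormone-responsive-like over luminal progenitor-like cells gave 0.09 ± 0.09 (adjusted p = 0.53). Kcnk6, TWIK-2, had 4.98, 1.05 and 1.40 CPM in basal-like, 0.734, 0.79 and 0 CPM in hormone-responsive-like and 1.59, 9.20 and 5.62 CPM in luminal progenitor-like cells. In library 1 basal-like cells were the highest class and in libraries 2 and 3 luminal progenitor-like cells were, and basal-like over luminal progenitor-like cells was not called (-1.35 ± 2.24, adjusted p = 0.17) except without library 1 (-2.56, adjusted p = 2.2e-04, range over 12 alternatives 2.2e-04 to 0.817). The call for hormone-responsive-like over luminal progenitor-like cells (-3.57 ± 1.72, adjusted p = 0.038) was lost when library 2 was left out (adjusted p = 0.11), and likewise library 3 (-2.71, adjusted p = 0.209), and the value was -4.20 without library 1, with adjusted p from 2.1e-04 to 0.209 over 12 alternatives. Kcnk7 was tested and not called, and the other 5 genes had 17 UMIs or fewer each.

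**Figure D3:**
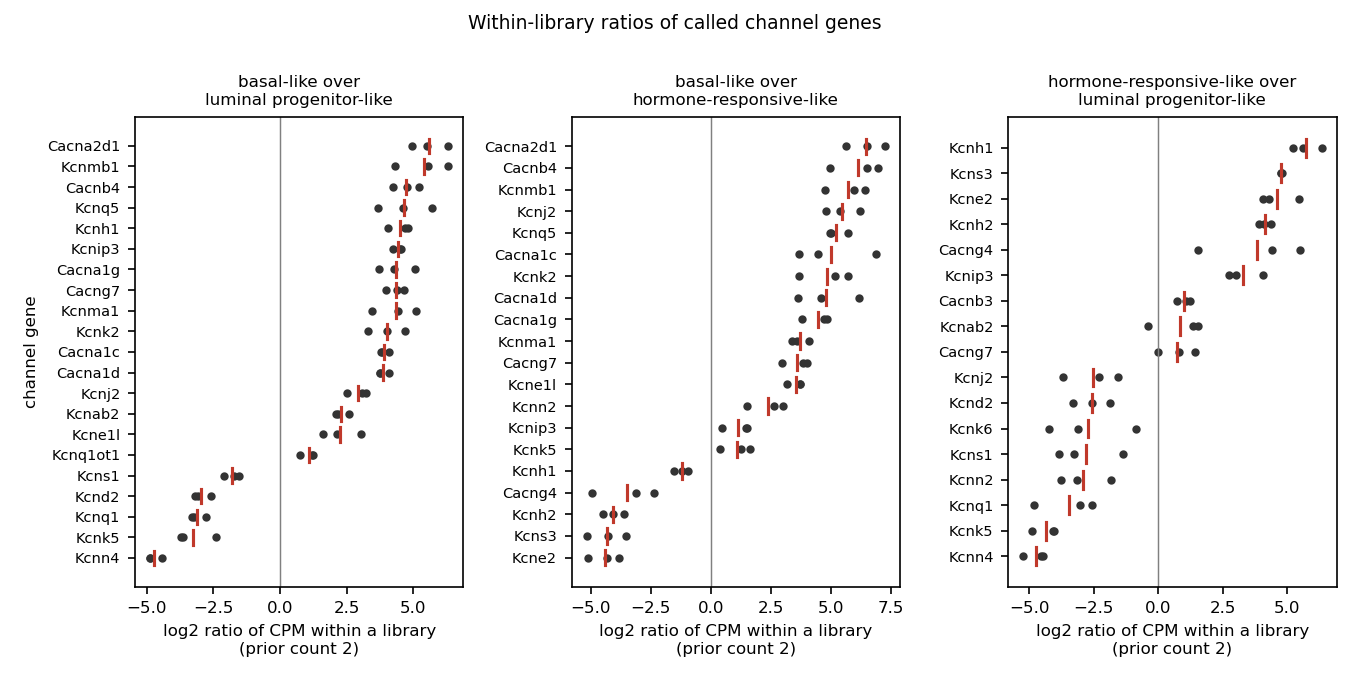
Log2 ratios of CPM within each library for the called channel genes, with basal-like over luminal progenitor-like cells on the left (21 genes), basal-like over hormone-responsive-like cells in the middle (20 genes) and hormone-responsive-like over luminal progenitor-like cells on the right (17 genes); points are the 3 libraries, bars their means, and a prior count of 2 draws ratios of scarce genes towards 0. Most genes keep 1 side of 0 in all 3 libraries, while Kcnab2 and Cacng7 in the right panel do not.

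Kcnq1ot1 shares the Kcn prefix but is a non-coding RNA, transcribed antisense from within Kcnq1 and known for silencing genes of its imprinted region. It had 371, 241 and 204 CPM in basal-like, 175, 150 and 118 CPM in hormone-responsive-like and 219, 101 and 88.8 CPM in luminal progenitor-like cells. Library 1 was the highest in each class, and the values of basal-like cells overlapped with those of luminal progenitor-like cells, although basal-like cells were higher within each library. The log2 fold change was 1.06 ± 0.27 for basal-like over luminal progenitor-like cells (adjusted p = 6.4e-04), and it was 0.97 without library 2, 0.99 without library 3 and 0.99 without the replicate block, all under 1 (adjusted p 1.4e-08 to 0.04 over 13 alternatives). Over hormone-responsive-like cells the change was 0.84 ± 0.21 (adjusted p = 0.0023). Kcnq1 and Kcnq1ot1 overlap on opposite strands. The sources used here do not give whether reads were counted by strand, and how reads were assigned where they overlap was not checked. The same holds for Kcnab3 with Kcnab3os and Kcnmb4 with Kcnmb4os2.

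The share of single cells with at least 1 UMI was set side by side after thinning every cell to 1500 UMIs, which left out 265, 614 and 1293 basal-like, 20, 76 and 93 hormone-responsive-like and 339, 110 and 209 luminal progenitor-like cells of libraries 1, 2 and 3. Median depths before thinning were 1721 to 2171 UMIs in basal-like, 3332.5 to 3827 in hormone-responsive-like and 2824 to 3777 in luminal progenitor-like cells. Cacna2d1 was found in 20.3%, 12.1% and 13.0% of basal-like cells, a mean of 15.1% ± 4.49 (SD, n = 3), against 0.267% ± 0.0439 of hormone-responsive-like and 0.169% ± 0.0254 of luminal progenitor-like cells. Without thinning the means were 20.1%, 0.351% and 0.665%. Most basal-like cells thus had no Cacna2d1 UMI at this depth, which does not show that they lacked the transcript.

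Kcnn4 was found in 0.992% ± 0.0584 of basal-like, 0.907% ± 0.608 of hormone-responsive-like and 21.2% ± 3.08 of luminal progenitor-like cells, and in 1.33%, 2.27% and 40.6% without thinning. Elf5, a marker that the first 2 of these classes should lack, was found in 2.06%, 1.88% and 55.2% of cells thinned in the same way. The Kcnn4 shares outside luminal progenitor-like cells were under those of Elf5. Elf5 was also found in more luminal progenitor-like cells, 55.2% against 21.2%, so this comparison cannot decide whether Kcnn4 was expressed outside that class. No expression outside it is read from the share alone. Elf5 was among the markers that set the classes, which limits its own share outside luminal progenitor-like cells. Kcnk5 was found in 0.978% ± 0.174 of basal-like, 0.415% ± 0.218 of hormone-responsive-like and 11.5% ± 4.02 of luminal progenitor-like cells, and in 1.69%, 1.46% and 23.1% of them without thinning. What the low shares of Kcnn4 and Kcnk5 outside luminal progenitor-like cells come from was not tested.

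Kcnh1 was found in 4.37% ± 1.17 of basal-like, 10.0% ± 0.69 of hormone-responsive-like and 0.167% ± 0.0839 of luminal progenitor-like cells, and in 5.84%, 19.8% and 0.381% without thinning. The hormone-responsive marker Prlr, found in 97.0% of hormone-responsive-like cells, had a share of 2.66% in basal-like cells, below that of Kcnh1, and of 14.6% in luminal progenitor-like cells, far above it. Kcnip3 was found in 3.77% ± 1.38 of basal-like, 1.97% ± 0.743 of hormone-responsive-like and 0.123% ± 0.122 of luminal progenitor-like cells; the basal marker Krt14 was found in 88.5%, 9.78% and 10.7% of them. Kcnip3 in hormone-responsive-like cells was below the Krt14 share. Krt14 was far more abundant than Kcnip3 in basal-like cells, so their shares set side by side cannot tell where the Kcnip3 counts came from. On the scale of CPM, Krt14 had 2825, 2323 and 2800 in basal-like and 45.8, 95.9 and 59.1 in hormone-responsive-like cells. Kcnip3 had 18.4, 35.5 and 26.8 CPM in basal-like and 13.2, 12.4 and 9.47 CPM in hormone-responsive-like cells. Krt14 and Prlr were among the markers that set the classes, which limits their own counts outside their class. The source of the Kcnip3 and Kcnh1 counts outside their highest class was not tested. Cacnb4 was found in 6.26% and Kcnmb1 in 4.76% of basal-like cells and each in at most 0.151% of a luminal class, while Kcnk1 (8.01%, 14.7% and 12.5%) and Cacnb3 (4.11%, 8.50% and 3.81%) were found in all 3 classes.

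**Figure D4:**
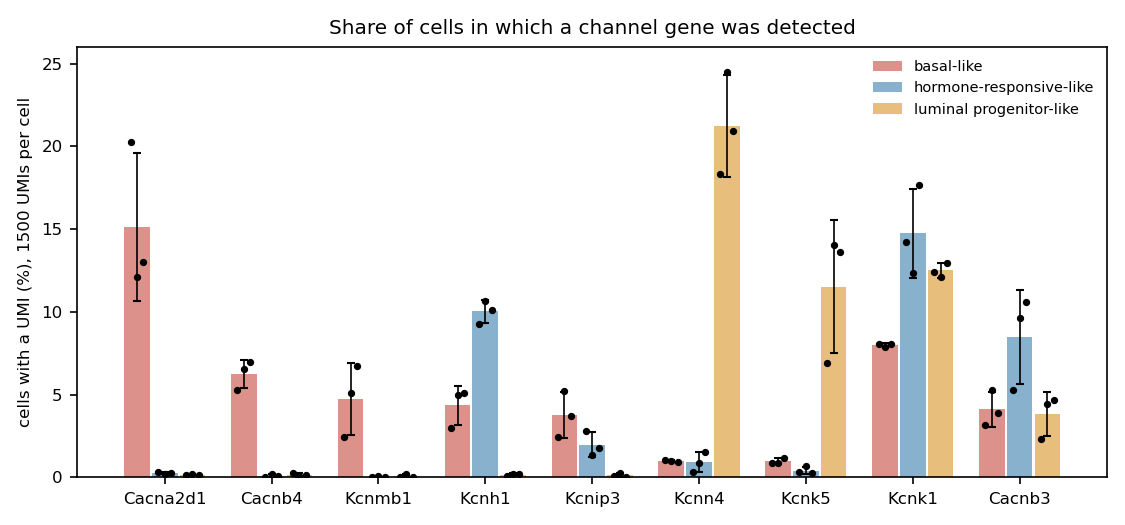
Percent of cells with at least 1 UMI of each of 9 channel genes after thinning to 1500 UMIs per cell, in basal-like, hormone-responsive-like and luminal progenitor-like cells; bars are means, error bars the SD and points the 3 libraries. Cacna2d1 is highest in basal-like cells (15.1%), Kcnh1 in hormone-responsive-like cells (10.0%) and Kcnn4 in luminal progenitor-like cells (21.2%), each set against the same gene in the other classes, while Kcnk1 and Cacnb3 are found in all 3 classes.

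Counts were too low to test 63 of the channel genes. Of all 97, 1 (Kcnc2) had 0 UMIs in the 9 sums and 22 had 1 to 3, while 8 of the untested genes had over 40 UMIs. By role, the tested share was 8 of 31 voltage-gated pores, 5 of 15 auxiliary subunits, 1 of 10 inward rectifiers, 5 of 10 two-pore-domain channels, 4 of 8 calcium- or sodium-activated pores, 4 of 9 calcium pores and 6 of 11 calcium auxiliaries, and of 3 non-coding genes with the prefix 1 was tested. A class at 0 UMIs allows up to 0.144 CPM in basal-like, 0.323 CPM in hormone-responsive-like cells and 0.11 CPM in luminal progenitor-like cells by counting error alone, so absence is not shown for any of them. Neighbours on a chromosome could differ widely, as Cacna2d4, 40.1 kb from Cacna1c, had 2 UMIs against 579.

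Genes that handle calcium and ions beside the channels were called in both directions in each comparison. Their counts stand against the shares of all tested genes given above by direction, several are near those shares, and nothing particular to these lists is read from them. Of 27 listed genes of calcium stores, entry and pumps, 19 were tested; 5 were called higher and 3 lower in basal-like than in luminal progenitor-like cells, 5 and 5 in basal-like than in hormone-responsive-like cells, and 3 and 1 in hormone-responsive-like than in luminal progenitor-like cells. The plasma-membrane calcium pump Atp2b1 averaged 170 ± 33.5 CPM in basal-like, 13.9 ± 4.27 CPM in hormone-responsive-like cells and 237 ± 36.8 CPM in luminal progenitor-like cells, and was lower in hormone-responsive-like than in luminal progenitor-like cells by a log2 fold change of -4.11 ± 0.51 (adjusted p = 1.1e-06). Among store-operated entry genes, the sensor Stim1 was higher in basal-like than in luminal progenitor-like cells (2.59 ± 0.46, adjusted p = 2.8e-05) and the pore Orai1 lower (-1.99 ± 0.19, adjusted p = 1.4e-05).

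Of 23 listed genes of sodium and potassium pumps and chloride channels, 17 were tested. Basal-like cells had 4 higher and 3 lower than luminal progenitor-like cells and 5 higher and 6 lower than hormone-responsive-like cells, and hormone-responsive-like cells had 5 higher and 1 lower than luminal progenitor-like cells. The beta subunits of the sodium pump ran opposite ways. Atp1b3 was higher in basal-like cells (2.03 ± 0.16 over luminal progenitor-like cells, adjusted p = 2.1e-06) and Atp1b1 lower (-4.10 ± 0.23, adjusted p = 4.9e-07). The sodium, potassium and chloride cotransporter Slc12a2 averaged 51.3 ± 12.3 CPM in basal-like, 1670 ± 721 CPM in hormone-responsive-like cells and 84.2 ± 24.4 CPM in luminal progenitor-like cells, and was called in the hormone-responsive-like class over both (-5.00 ± 0.41 for basal-like over hormone-responsive-like, adjusted p = 8.0e-06, and 4.23 ± 1.07 for hormone-responsive-like over luminal progenitor-like cells, adjusted p = 3.0e-05).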

How the data were processed

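The authors deposited 1 table of raw UMI counts per library; per the submitters' processing notes, Cell Ranger 2.1.0 and the build mm10 were used. The sources used here do not give the gene annotation or the strand setting. All 3 tables were used, with 0 columns left out. Barcodes with at least 500 genes and under 10% mitochondrial UMIs were kept. The highest doublet scores from Scrublet (scanpy 1.11.5, Python 3.11.15) were removed library by library at 0.8% per 1000 barcodes, which took 358, 653 and 989 cells and left 5985, 8281 and 10054.

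Counts were summed per library and class, since cells are not replicates, and compared with edgeR 4.0.16 in R 4.3.3 (quasi-likelihood test, two-sided, TMM factors, filterByExpr, library as a block, all 9 sums in 1 model). The method was tested on simulated data without library effects, with changes placed only in genes above a minimum mean level. That test does not cover the calls of scarce genes. The 11 class markers were not tested. Levels are TMM-normalised CPM, except those of marker genes, which are scaled by total counts alone. The SD beside a fold change is that of 3 within-library log2 ratios with a prior count of 2. These ratios need not centre on the fitted value, and for scarce genes the prior count draws them towards 0. For Kcnh2 in hormone-responsive-like over luminal progenitor-like cells they were 3.90, 4.11 and 4.39, against a fitted 5.08. Intervals of count ratios are 95% exact intervals, and the floor is 3 counts; both cover counting error only. The library pairs the classes by construction, since its classes come from 1 suspension; deviations of 2 classes within a library correlated across genes at 0.19 to 0.41, genes not being independent replicates.

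Values are given for the 10 largest called changes of 1 sign in each direction and comparison, for the BK, KCNQ1, L-type and SK and IK subunits, and for further members as counts or levels chosen after their values were seen. Gene coordinates are from GENCODE vM21 (GRCm38), in which all 97 symbols were found, and upstream sequences from RefSeq. Members, lists and tests were chosen with earlier results of these data known. The search of basal-like cells for pericyte markers was chosen after seeing the data. Values of some members are not reported here, though they entered the fit and the counts.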

Additional observations from a re-analysis of the deposited data

Results flagged for a closer look

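Cells that entered no class but had UMIs of at least 3 markers of another cell type were outside every comparison above, and some channel genes stood in them above what a count of 0 allows and above every class. In 140 such cells with fibroblast markers (281936 UMIs, in which 3 counts are 10.6 CPM) there were 9 UMIs of Kcne4 (31.9 CPM), 8 of the small-conductance channel Kcnn3 (28.4 CPM), 7 of Kcnj8 (24.8 CPM) and 5 of Kcnd1 (17.7 CPM). The highest mean of any class was 1.08 CPM for Kcne4, 0.276 CPM for Kcnn3, 0.214 CPM for Kcnj8 and 1.88 CPM for Kcnd1.

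In 15 such cells with pericyte markers (27605 UMIs, 3 counts being 109 CPM) there were 12 UMIs of Kcne4 (435 CPM), 6 of Kcnj8 (217 CPM), a pore of the ATP-sensitive channel of vascular muscle, and 5 of the leak channel Kcnk3 (181 CPM). Kcnk3 reached at most 0.595 CPM in a class. In 12 such cells with immune markers (33861 UMIs) there were 8 UMIs of Kcnab2 (236 CPM), against 2.08 CPM in the highest class. These cells were few, no replicate test was run on them, and the antibody to CD45 in the sort marks immune cells.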

How the results depend on the processing

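The count of channel genes called in basal-like over luminal progenitor-like cells was 21, and 14 to 29 under other settings; leaving out 1 library gave 20 to 27. In basal-like over hormone-responsive-like cells it was 20, with a range of 14 to 29, and 20 to 23 with 1 library left out. In hormone-responsive-like over luminal progenitor-like cells it was 17, and 11 to 18 with 1 library left out, the lowest without library 3, and 9 with sums thinned to equal totals, where fewer genes passed the filter. The highest counts came without a filter on low counts. Without the replicate block the counts were 20, 20 and 17; with DESeq2 1.42.0 they were 22, 21 and 16. The median share of cells with a UMI, over 6 genes in their own class, was 10.8% at 1500 UMIs, 19.95% unthinned and 7.24% at 1000 UMIs, as depth sets it. The fold changes of 91 pairs of a gene and a comparison were followed, among them all 58 called for channel genes. Over these pairs and the alternatives, 1082 values kept their direction and side of the threshold, 14 gained and 20 lost a call, and 19 turned in sign, none of them a called one. Of the 58 called fold changes, 3, 14 and 12 moved by over 1.5 times without library 1, 2 and 3, and 9 of the 36 still tested did so with thinned sums. Among the pairs followed, those that turned were, for basal-like over hormone-responsive-like cells, Cacna1a (-0.29 to 0.03 with 1 library left out), Kcnn4 (0.07 with RLE factors, 0.03 without filter, -0.23 to 0.29 with 1 library left out, 0.13 with the stricter class rule, 0.16 with every barcode, 0.18 with doublets kept and 0.07 with DESeq2), Kcnn1 (-0.48 to 0.30 with 1 library left out, including 0.01 without library 2, and 0.02 with DESeq2) and Kcnq1 (-0.44 to 0.60 with 1 library left out). For hormone-responsive-like over luminal progenitor-like cells they were Cacna1a (-0.46 to 0.08 with 1 library left out), Cacnb1 (-0.17 to 0.03 with 1 library left out, 0.07 with thinned sums) and Kcnma1 (-0.09 to 2.88 with 1 library left out, -0.09 with thinned sums), and for basal-like over luminal progenitor-like cells Cacna1a (-0.76 to 0.11 with 1 library left out) and Kcne2 (-0.03 with Acta2 left out of the basal sum). The cause of these changes was not tested. The hormone-responsive-like sum of library 1, at 1244862 UMIs, limits every comparison of a scarce gene with that class.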
